A study of Arabidopsis thaliana with 12 samples.

Results

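The basal effect of losing PAD4 was read from 6 of the 12 libraries of the study: 3 from pad4 leaves and 3 from wild-type leaves, all after water. Libraries were chosen by their labels alone, and the comparison covered all genes with enough reads, 19652 of the 24228 in the table. The plants were Arabidopsis thaliana, and messenger RNA was sequenced from rosette leaves. The pad4 group carried a knockout of PAD4 and had received water, the mock treatment. The wild-type group was the accession Col-0 and had received water as well. The other 6 libraries, 3 of pad4 and 3 of wild type after 2'cADPR, a cyclic nucleotide made by TIR-domain immune proteins, shared the estimate of the spread and served as a side-by-side reading of the same genotypes. The pad4 allele, the number of plants per library, their age, the dose and the time after treatment are all not given in the sources used here. Because no label says that libraries came from separate plants, p-values reflect only the spread among these libraries, and that may be technical.

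PAD4 is a lipase-like protein that pairs with EDS1. The pair is switched on by small nucleotides that TIR-domain receptors make, and then engages the helper receptors ADR1, ADR1-L1 and ADR1-L2, which act as calcium channels in the plasma membrane. In leaves the EDS1-PAD4-ADR1 node is known for driving the synthesis of salicylic acid, a hormone of defence against biotrophic pathogens, and for limiting the growth of such pathogens. Jasmonate, the hormone of defence against chewing insects and necrotrophs, often works against salicylic acid.

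The libraries held between 42.1 and 42.9 M counted reads in pad4 and between 35.8 and 43.6 M in wild type. Values are given in CPM, counts per M reads after scaling by TMM, and a log2 value is the log2 fold change of pad4 over wild type with its standard error (SE). A gene was called when its edgeR quasi-likelihood adjusted p was under 0.05 over all tested genes. In the 6 water libraries the first principal component, 64.1% of the variance, put pad4 at 44.8 to 54.2 and wild type at -61.8 to -44.0. The second, 11.6%, set wild-type library 1 at 34.6, apart from wild-type libraries 2 and 3 at -23.9 and -18.2.

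PAD4 itself had 3.14, 2.94 and 5.51 CPM in the pad4 libraries, against 75.03, 63.9 and 66.8 CPM in the wild-type libraries. Its level in pad4 was 5.64% of that in wild type, and the groups did not overlap (log2 -4.15 ± 0.21 SE, edgeR adjusted p = 2.55e-09). With 3 libraries against 3 the exact two-sided permutation test of its log2 CPM gave p = 0.1, the smallest it can give. No library went against its genotype label.

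Far more genes were strongly lower in pad4 than strongly higher. Of the 19652 tested genes, 5744 were called, 29.2% of all, with 2299 higher in pad4 (11.7%) and 3445 lower (17.5%). These shares are the background for each list count below. Most called differences were small: the median called rise was 1.33-fold and the median called fall 1.602-fold, while the median log2 over all tested genes was 0.00. The pad4 and wild-type libraries did not overlap for 20.2% of tested genes with pad4 higher and 23.5% with pad4 lower. A lack of overlap alone was therefore common. At 2-fold or more, 216 genes were higher (1.1%) and 1221 lower (6.21%). At 8-fold or more, 18 were higher and 298 lower, and at 32-fold or more, 2 were higher and 111 lower. In bulk leaves, fewer cells of a type and less RNA per cell cannot be told apart. Of the 298, 55 had no read in any pad4 library, and of the 111, 50 had none, so their fold is a fitted value. The filter on reads used all 12 libraries, so genes with few reads after water could be tested. On the 6 water libraries alone, 1046 genes were lower at 2-fold or more and 218 higher. The 1221 genes together took 1.66%, 2.05% and 1.77% of the CPM of pad4 libraries 1, 2 and 3, against 7.43%, 6.34% and 6.17% in wild-type libraries 1, 2 and 3. The balance of the small changes depended on the processing. By edgeR 40.02% of calls were higher with TMM, 45.1% with RLE factors in its place and 35.5% without pad4 library 2. The share was 46.0% by DESeq2 and 51.5% by limma on log2(FPKM + 1), which called 3098 genes higher and 2913 lower.

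**Figure D1:**
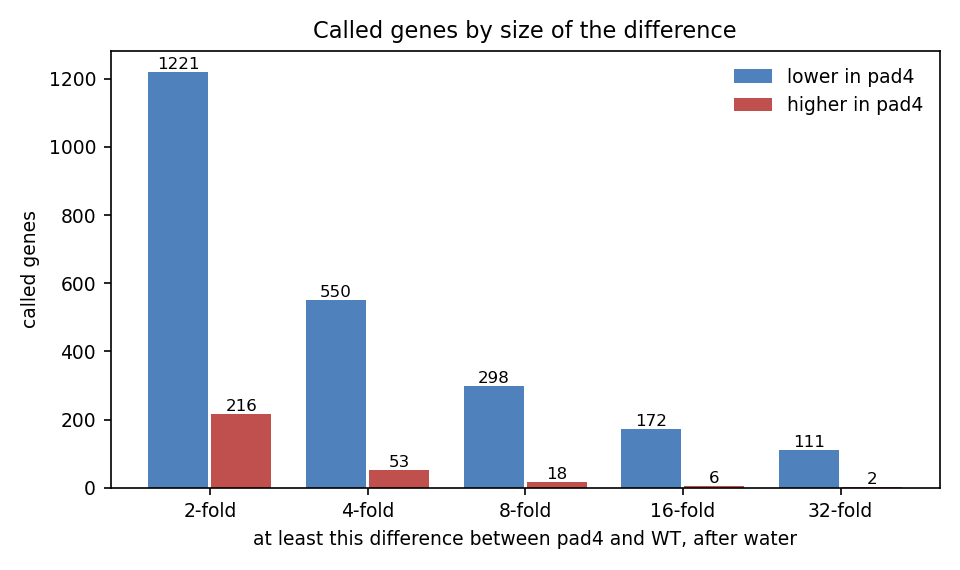
Number of called genes (vertical axis) that were lower (blue) or higher (red) in pad4 after water, by the smallest fold difference counted (horizontal axis). The counts are 1221 lower and 216 higher at 2-fold or more, and 111 lower and 2 higher at 32-fold or more. Of the 111, 50 had no read in any pad4 library.

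Wild-type library 1 was the highest of its group for 73.1% of the 1221 genes that were at least 2-fold lower in pad4, and pad4 library 2 was the highest of its group for 55.9%. Without wild-type library 1 the count at 2-fold or more was 1070 lower and 205 higher, and without pad4 library 2 it was 1181 lower and 170 higher. Protein-coding genes made up 19095 of the tested genes, of which 11.9% were higher and 17.9% lower. Of 557 tested long noncoding genes, 5.21% were higher and 4.13% lower.

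**Figure D2:**
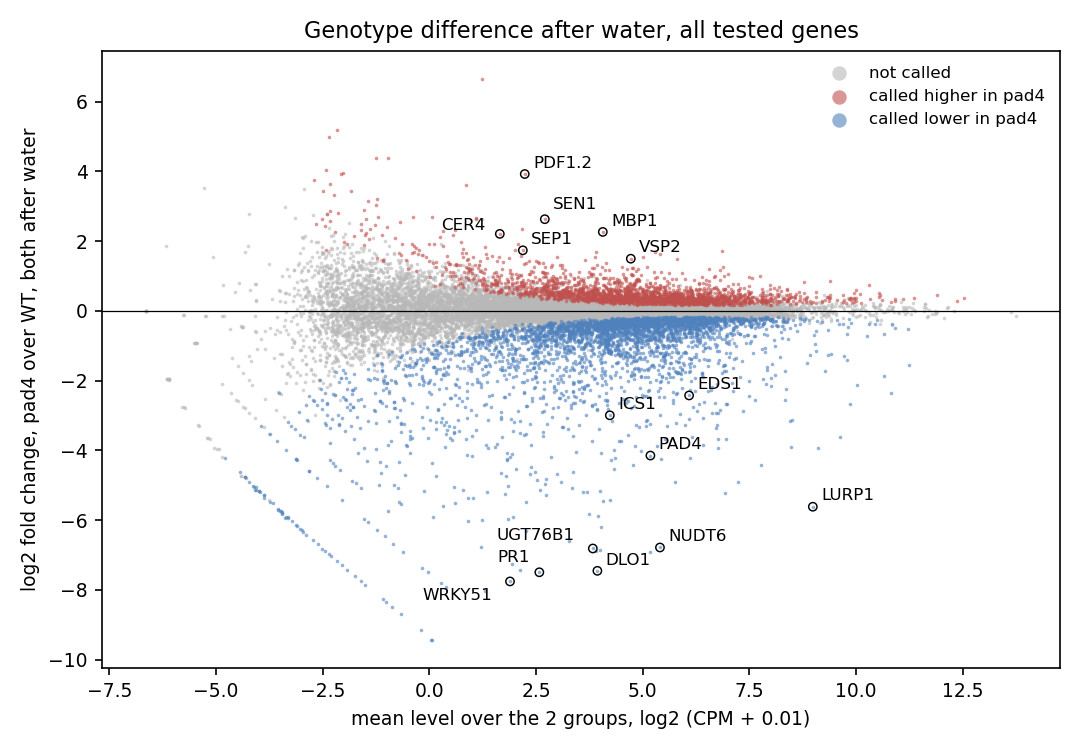
Each point is a tested gene, with its mean level over the groups on the horizontal axis (log2 of CPM + 0.01) and its log2 fold change of pad4 over wild type after water on the vertical axis. Called genes are red (higher) or blue (lower). Blue points reach far below 0, to -7.76 for WRKY51 among the labelled genes, while the labelled rises end at 3.92 for PDF1.2; the straight lines of blue points at the lower left are genes with few or no reads in pad4.

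The 12 largest falls among genes with a symbol and at least 5 CPM were WRKY51, PR1, DLO1, ARD3, AIG1, UGT76B1, NUDT6, PUB54, WRKY50, GRXS13, LURP1 and LHT7. WRKY51, a transcription factor, had 0.0468, 0.0230 and 0.0233 CPM in the pad4 libraries, against 10.1, 5.03 and 6.90 CPM in the wild-type libraries (log2 -7.76 ± 0.47 SE, edgeR adjusted p = 1.29e-08). NUDT6, a nudix hydrolase of nucleotide substrates, had 0.328, 1.17 and 0.768 CPM in the pad4 libraries, against 95.5, 70.8 and 85.2 CPM in the wild-type libraries (log2 -6.78 ± 0.29 SE, edgeR adjusted p = 4.84e-10). AIG1, a GTPase named for its induction by a bacterial effector, had 0.960, 0.666 and 0.140 CPM in the pad4 libraries, against 77.2, 50.6 and 85.8 CPM in the wild-type libraries (log2 -6.91 ± 0.39 SE, edgeR adjusted p = 6.85e-09). Each was nearly silent in every pad4 library and expressed in every wild-type library. Because the rule required groups without overlap, their separation is no further result.

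LURP1, named for its late induction during recognition of an oomycete, was the most abundant of these 12 in wild type. It had 7.0, 44.7 and 9.03 CPM in the pad4 libraries, against 1118, 980.0 and 883 CPM in the wild-type libraries (log2 -5.62 ± 0.64 SE, edgeR adjusted p = 8.89e-06). Per transcript length it stood at 9.25 ± 9.77 FPKM in pad4 and 438 ± 66.4 FPKM in wild type. Pad4 library 2 was the highest of its group, and without it the log2 value was -6.95. ARD3, an acireductone dioxygenase of the methionine salvage cycle, had 0, 0.0230 and 0.116 CPM in the pad4 libraries, against 14.4, 3.43 and 5.07 CPM in the wild-type libraries (log2 -7.26 ± 0.81 SE, edgeR adjusted p = 6.69e-06). Its level in wild-type library 1 was the highest, with log2 -6.43 without it and -9.02 without pad4 library 3. PUB54, a U-box protein, stood at -6.60 (-7.32 without pad4 library 1), GRXS13, a glutaredoxin, at -5.98 (-6.59 without pad4 library 2), WRKY50 at -6.31, and LHT7, of the lysine and histidine transporter family, at -5.48.

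Genes without a symbol fell as far, and the following were chosen after their values were seen. AT1G43910, annotated as a P-loop nucleoside triphosphate hydrolase, had 0.258, 0.230 and 0.256 CPM in the pad4 libraries, against 32.5, 24.7 and 31.9 CPM in the wild-type libraries (log2 -6.89 ± 0.20 SE, edgeR adjusted p = 6.52e-11). AT5G26690, annotated with a heavy metal transport and detoxification domain, had 0.258, 0.345 and 0.209 CPM in the pad4 libraries, against 38.8, 28.3 and 27.3 CPM in the wild-type libraries. AT3G60470, a putative transmembrane protein, had no read in pad4 and 2.23, 1.30 and 2.60 CPM in wild type, at least 88.7-fold lower against a floor of 3 counts over the pad4 group. WAK3, a wall-associated kinase, had 2 reads in all of pad4, both in library 2, a wild-type to pad4 ratio of 310.1 with a counting interval of 85.5 to 2567. Its relative WAK1, a pectin-binding kinase of the cell wall, had 26.7, 70.3 and 36.9 CPM in the pad4 libraries, against 765, 641 and 596 CPM in the wild-type libraries (log2 -3.90 ± 0.30 SE, edgeR adjusted p = 1.12e-07). Every pad4 library lay below every wild-type library for each of these genes, which were chosen with their values known. A separation of this kind was seen for 23.5% of all tested genes.

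The regions upstream of 5 of the 6 largest falls and of the 2 largest rises are shown because TTGAC, the core of the W box to which WRKY factors bind, was searched there. Each is the 250 bases before the annotated gene start, 5' to 3' in the direction of the gene, from RefSeq TAIR10.1, with TTGAC or its reverse complement GTCAA in capitals. The positions are WRKY51 (chr5:25907997-25908246, plus strand), DLO1 (chr4:6490767-6491016, plus strand), ARD3 (chr2:11233389-11233638, minus strand), AIG1 (chr1:12345888-12346137, plus strand), UGT76B1 (chr3:3556304-3556553, plus strand), PDF1.2 (chr5:17907639-17907888, minus strand) and SEN1 (chr4:16944628-16944877, plus strand).
WRKY51: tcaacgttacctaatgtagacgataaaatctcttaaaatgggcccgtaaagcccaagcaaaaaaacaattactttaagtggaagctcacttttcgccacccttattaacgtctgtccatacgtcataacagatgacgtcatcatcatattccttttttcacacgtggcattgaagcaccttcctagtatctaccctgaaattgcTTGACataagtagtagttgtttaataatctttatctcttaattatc
DLO1: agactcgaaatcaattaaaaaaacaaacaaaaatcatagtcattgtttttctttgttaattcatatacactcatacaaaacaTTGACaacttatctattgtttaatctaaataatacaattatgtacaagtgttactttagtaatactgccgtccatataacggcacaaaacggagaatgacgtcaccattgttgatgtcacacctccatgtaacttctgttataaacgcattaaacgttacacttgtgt
ARD3: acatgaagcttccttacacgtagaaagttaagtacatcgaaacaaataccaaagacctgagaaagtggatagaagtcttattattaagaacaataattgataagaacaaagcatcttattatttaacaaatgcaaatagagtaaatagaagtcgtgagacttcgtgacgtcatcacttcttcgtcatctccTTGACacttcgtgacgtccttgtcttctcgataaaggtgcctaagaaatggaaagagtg
AIG1: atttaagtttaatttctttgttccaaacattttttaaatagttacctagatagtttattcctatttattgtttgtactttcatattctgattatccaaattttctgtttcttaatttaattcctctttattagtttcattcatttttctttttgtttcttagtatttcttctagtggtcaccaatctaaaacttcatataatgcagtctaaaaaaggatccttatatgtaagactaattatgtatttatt
UGT76B1: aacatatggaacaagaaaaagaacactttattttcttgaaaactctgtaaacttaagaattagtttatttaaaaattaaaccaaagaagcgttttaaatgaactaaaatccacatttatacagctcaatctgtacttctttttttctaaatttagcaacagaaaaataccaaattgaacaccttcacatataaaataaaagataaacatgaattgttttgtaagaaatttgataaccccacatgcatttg
PDF1.2: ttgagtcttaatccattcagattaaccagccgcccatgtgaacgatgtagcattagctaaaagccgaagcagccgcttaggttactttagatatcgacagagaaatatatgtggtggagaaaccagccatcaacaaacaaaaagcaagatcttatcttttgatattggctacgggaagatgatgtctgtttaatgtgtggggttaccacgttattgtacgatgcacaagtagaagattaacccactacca
SEN1: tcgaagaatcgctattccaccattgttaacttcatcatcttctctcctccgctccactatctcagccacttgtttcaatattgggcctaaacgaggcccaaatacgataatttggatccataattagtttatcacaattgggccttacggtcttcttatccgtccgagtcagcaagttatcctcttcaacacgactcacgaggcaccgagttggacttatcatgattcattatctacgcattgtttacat

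WRKY51, DLO1 and ARD3 each held 1 match, and AIG1, UGT76B1, PDF1.2 and SEN1 held 0. Over all genes, TTGAC stood on either strand in 63.4% of the 298 upstream windows of genes at least 8-fold lower in pad4 and in 61.3% of the 1221 windows of genes at least 2-fold lower. It stood in 42.9% of the 212 windows of genes at least 2-fold higher, in 43.7% of windows of tested genes that were not called, and in 44.9% of all 24120 windows of the table. The longer W box, TTGACC or TTGACT, which contains TTGAC, was in 48.0% and 45.8% of windows of genes at least 8-fold and 2-fold lower. Its share was 24.5% for genes at least 2-fold higher and 28.2% for all genes. TGACG, bound by TGA factors and overlapping TTGAC where TTGACG occurs, was in 25.4% of windows of genes at least 2-fold lower, 16.04% of those at least 2-fold higher and 19.1% of all. The G box CACGTG was in 6.72%, 8.96% and 6.81%. These are descriptions of sequence, and a match is not a binding site.

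All 6 tested members of the EDS1 module were lower in pad4 (median log2 -1.61). EDS1, the partner of PAD4, had 20.005, 22.5 and 21.4 CPM in the pad4 libraries, against 119, 111 and 114 CPM in the wild-type libraries (log2 -2.43 ± 0.10 SE, edgeR adjusted p = 4.66e-10). SAG101, the other partner of EDS1, had 19.7, 20.1 and 17.8 CPM in the pad4 libraries, against 40.8, 37.4 and 37.6 CPM in the wild-type libraries (log2 -1.004 ± 0.09 SE, edgeR adjusted p = 8.48e-07). The helper receptor ADR1 had 12.3, 13.2 and 12.8 CPM in the pad4 libraries, against 23.97, 23.2 and 25.9 CPM in the wild-type libraries (log2 -0.94 ± 0.12 SE, edgeR adjusted p = 3.8e-05). For all of these genes the groups were far from overlapping, and SAG101 and ADR1 stood at 49.9% and 52.2% of wild type.

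ADR1-L1 had 53.7, 58.1 and 54.4 CPM in the pad4 libraries, against 203, 175 and 173 CPM in the wild-type libraries (log2 -1.73 ± 0.07 SE, edgeR adjusted p = 5.16e-10). ADR1-L2 had 30.01, 36.5 and 31.4 CPM in the pad4 libraries, against 99.1, 83.2 and 91.3 CPM in the wild-type libraries (log2 -1.48 ± 0.09 SE, edgeR adjusted p = 8.93e-09). AT3G48080, the neighbour of EDS1 with a near-identical sequence, was looked at after its values were seen. It had 0.492, 3.42 and 1.05 CPM in the pad4 libraries, against 43.5, 37.1 and 34.7 CPM in the wild-type libraries (log2 -4.53 ± 0.41 SE, edgeR adjusted p = 7.37e-07, and -5.64 without pad4 library 2). Reads may have been shared or lost between EDS1 and this copy. PAD4 is itself a member of the list, so 5 of the 6 falls are of genes that the knockout did not target.

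**Figure D3:**
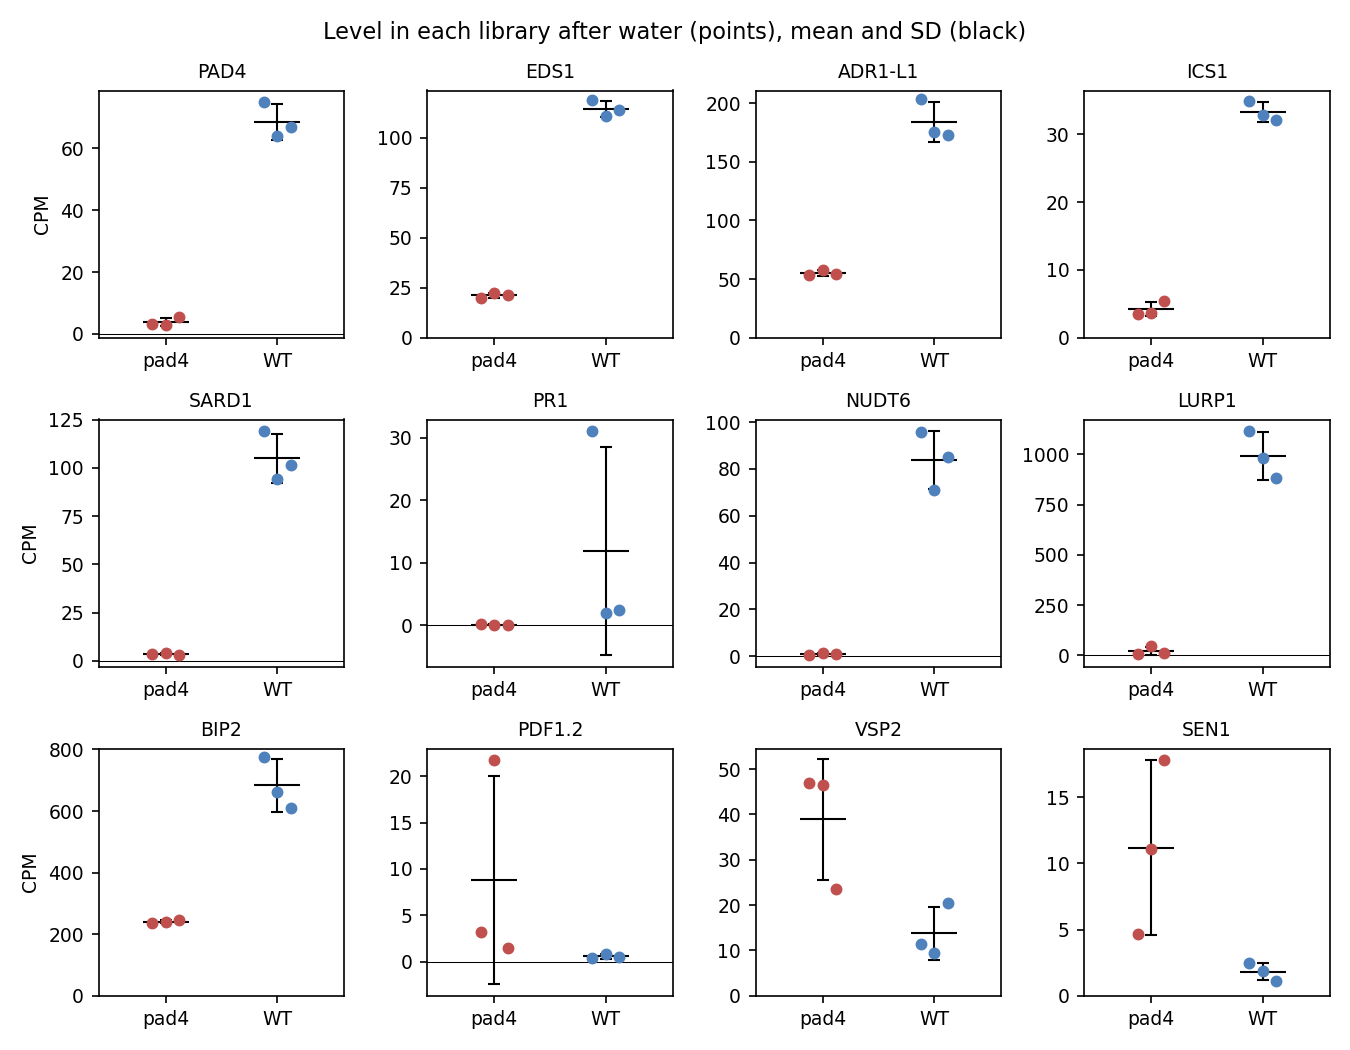
Level in CPM (vertical axes, one scale per gene) in each of 3 pad4 (red) and 3 wild-type (blue) libraries after water; black lines are the mean and bars the SD. PAD4, EDS1, ADR1-L1, ICS1, SARD1, NUDT6, LURP1, BIP2, VSP2 and SEN1 separate without overlap, PR1 rests on wild-type library 1 at 31.1 CPM, and PDF1.2 on pad4 library 2 at 21.8 CPM.

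Of 8 tested genes of salicylic acid synthesis and its regulators, 6 were lower in pad4 and 0 higher (median log2 -2.77). ICS1, the isochorismate synthase that feeds most defence salicylic acid, had 3.47, 3.70 and 5.35 CPM in the pad4 libraries, against 34.9, 32.8 and 32.2 CPM in the wild-type libraries (log2 -2.99 ± 0.13 SE, edgeR adjusted p = 6.05e-10). EDS5, which exports isochorismate from the chloroplast, had 4.92, 4.90 and 5.93 CPM in the pad4 libraries, against 34.0, 24.6 and 33.3 CPM in the wild-type libraries (log2 -2.54 ± 0.16 SE, edgeR adjusted p = 1.47e-08). PBS3, which joins isochorismate to glutamate, had 2.53, 2.07 and 1.72 CPM in the pad4 libraries, against 23.1, 17.2 and 21.3 CPM in the wild-type libraries (log2 -3.29 ± 0.18 SE, edgeR adjusted p = 6.19e-09). These genes are consecutive in the pathway, and each pad4 library was below each wild-type library, as for 23.5% of all tested genes.

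The transcription factors that switch on ICS1 were lower as well. SARD1 had 3.82, 3.86 and 2.84 CPM in the pad4 libraries, against 119, 94.3 and 101 CPM in the wild-type libraries (log2 -4.90 ± 0.16 SE, edgeR adjusted p = 1.11e-10). CBP60g had 3.26, 4.21 and 4.09 CPM in the pad4 libraries, against 41.7, 29.9 and 32.6 CPM in the wild-type libraries (log2 -3.17 ± 0.15 SE, edgeR adjusted p = 1.57e-09). CBP60a, a relative that represses immunity, stood at -0.28. The members not called were EPS1, the last enzyme of the route, at 0.13 and ICS2, the minor isochorismate synthase, at 0.35.

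Of 15 tested genes of salicylic acid perception and turnover, 10 were lower and 0 higher (median log2 -0.98). The enzymes that modify salicylic acid showed the largest differences. DLO1, a salicylic acid 3-hydroxylase, had 0.305, 0.0919 and 0.116 CPM in the pad4 libraries, against 49.5, 27.0 and 14.8 CPM in the wild-type libraries (log2 -7.45 ± 0.52 SE, edgeR adjusted p = 4.43e-08, and -8.15 without pad4 library 1). DMR6, the 5-hydroxylase, had 15.9, 22.1 and 15.9 CPM in the pad4 libraries, against 277, 227 and 190.5 CPM in the wild-type libraries (log2 -3.69 ± 0.17 SE, edgeR adjusted p = 7.35e-10). UGT76B1, which glucosylates salicylic and N-hydroxypipecolic acid, had 0.0468, 0.598 and 0.0931 CPM in the pad4 libraries, against 38.1, 18.1 and 28.3 CPM in the wild-type libraries (log2 -6.81 ± 0.40 SE, edgeR adjusted p = 8.61e-09, and -8.59 without pad4 library 2). The glucosyltransferase UGT74F2 stood at -1.34 and was called, while UGT74F1 stood at 0.41 and was not.

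Receptors of the hormone differed less. NPR4 had 21.1, 24.3 and 19.3 CPM in the pad4 libraries, against 63.5, 69.4 and 65.1 CPM in the wild-type libraries (log2 -1.61 ± 0.09 SE, edgeR adjusted p = 4.35e-09), NPR3 stood at -1.74 and NPR1 at -0.98 ± 0.08. NIMIN1, a small repressor that binds NPR1, had 0.0468, 1.93 and 0.0465 CPM in the pad4 libraries, against 27.8, 23.3 and 23.9 CPM in the wild-type libraries (log2 -5.19 ± 0.54 SE, edgeR adjusted p = 3.03e-06). Its pad4 libraries 1 and 3 were near 0 and library 2 was higher, with log2 -8.97 without it; DESeq2 gave no adjusted p for it. Of the TGA factors that bind NPR1, TGA3 at -0.49 and TGA5 at -0.48 were called, and TGA1, TGA2, TGA4 and TGA6, between -0.50 and 0.05, were not.

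N-hydroxypipecolic acid is the mobile signal of systemic acquired resistance. Its genes were near the limit of detection in both groups after water: FMO1, which makes it, had 0.0234, 0.184 and 0.0931 CPM in the pad4 libraries, against 0.550, 0.346 and 0.288 CPM in the wild-type libraries (log2 -1.92 ± 0.44 SE, edgeR adjusted p = 0.00518), with log2 -2.68 without pad4 library 2. FMO1 was not called on the 6 water libraries alone (log2 -1.92) or by limma on log2(FPKM + 1) (log2 -0.19, limma adjusted p = 0.0888). ALD1, the first enzyme, had 2 reads in all of pad4, and 0.660, 0.213 and 0.264 CPM in wild type, a wild-type to pad4 ratio of 24.03 with a counting interval of 6.26 to 205. Of the 5 tested members of that list, 3 were lower and 1 higher (median log2 -1.92), and without wild-type library 1 the count was 3 lower and 2 higher. AED1, an aspartyl protease, had 80.6, 109 and 94.0 CPM in the pad4 libraries, against 529, 389 and 336 CPM in the wild-type libraries (log2 -2.14 ± 0.17 SE, edgeR adjusted p = 1.4e-07). DIR1, a lipid transfer protein of the systemic signal, was the rise, at 8.41, 10.96 and 7.91 CPM in pad4 and 5.03, 4.04 and 5.84 CPM in wild type (log2 0.87 ± 0.16 SE, edgeR adjusted p = 0.000816). On the 6 water libraries alone the list gave 1 lower and 1 higher of 4 tested.

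Among 10 tested pathogenesis-related secreted proteins 5 were lower and 1 higher (median log2 -1.25). The rise was PDF1.2, and without pad4 library 2 there was none. PR1, the standard marker of salicylic acid, had 0.187, 0 and 0 CPM in the pad4 libraries, against 31.1, 1.94 and 2.48 CPM in the wild-type libraries (log2 -7.49 ± 1.43 SE, edgeR adjusted p = 0.00104). The wild-type level came mainly from library 1: the log2 value was -5.09 without it and -11.94 without pad4 library 1, which leaves no read in pad4. Voom did not call PR1 and DESeq2 gave it no adjusted p. BGL2, the beta-glucanase also called PR2, had 9.14, 10.7 and 12.4 CPM in the pad4 libraries, against 204, 117 and 73.7 CPM in the wild-type libraries (log2 -3.62 ± 0.32 SE, edgeR adjusted p = 6.38e-07). PR5, a thaumatin-like protein, had 21.1, 38.5 and 33.6 CPM in the pad4 libraries, against 219, 130.2 and 111 CPM in the wild-type libraries (log2 -2.31 ± 0.23 SE, edgeR adjusted p = 2.27e-06). The wild-type libraries ran in the same order for BGL2 and PR5, highest in library 1, and the groups did not overlap. BG3, another glucanase, stood at -4.01 ± 0.32, and PNP-A, a secreted natriuretic peptide-like protein, at -5.02 ± 0.34 (-6.56 without pad4 library 2). The chitinase PR3, at 0.04, and PR4, at -0.13, were not called.

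Receptors that detect pathogens inside the cell were lower in many cases and by modest amounts. Of 13 tested TIR-domain receptors of the list, 9 were lower and 0 higher (median log2 -0.41). AT1G72930, a short TIR protein listed as TIR, had 78.5, 120.3 and 79.3 CPM in the pad4 libraries, against 369.9, 353 and 348 CPM in the wild-type libraries (log2 -1.95 ± 0.14 SE, edgeR adjusted p = 5.21e-08). CHS1, a TIR-NBS protein linked to chilling, had 8.53, 8.34 and 8.56 CPM in the pad4 libraries, against 17.0, 16.03 and 16.7 CPM in the wild-type libraries (log2 -0.97 ± 0.08 SE, edgeR adjusted p = 2.73e-07). SNC1 stood at -0.44 and RPP4, an oomycete receptor of the same cluster, at -0.67 ± 0.09. A wider set, taken from annotated products after the values were seen, held 96 tested TIR-domain proteins, of which 65 were lower and 2 higher (median log2 -0.63).

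Of 8 coiled-coil receptors and partners 5 were lower and 0 higher (median log2 -0.56). ZAR1, which forms a resistosome, had 113, 128 and 112 CPM in the pad4 libraries, against 362, 363 and 356 CPM in the wild-type libraries (log2 -1.61 ± 0.07 SE, edgeR adjusted p = 4.5e-10). NDR1, needed by several coiled-coil receptors, had 11.2, 14.8 and 11.4 CPM in the pad4 libraries, against 39.99, 34.5 and 36.4 CPM in the wild-type libraries (log2 -1.56 ± 0.11 SE, edgeR adjusted p = 5.36e-08). RIN4, guarded by RPM1, stood at -1.04 ± 0.10, and RPM1 at -0.76 ± 0.08. SUMM2 and RPP13 were not called, at 0.17 and -0.03.

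At the cell surface, 17 of 23 tested pattern receptors and co-receptors were lower and 0 higher (median log2 -1.28). SOBIR1, the co-receptor of receptor-like proteins, had 50.3, 70.1 and 54.6 CPM in the pad4 libraries, against 400.5, 316 and 305 CPM in the wild-type libraries (log2 -2.54 ± 0.13 SE, edgeR adjusted p = 3.6e-09). RLP23, which senses a peptide of fungi, oomycetes and bacteria, had 5.93, 10.99 and 9.07 CPM in the pad4 libraries, against 117, 82.0 and 59.0 CPM in the wild-type libraries (log2 -3.31 ± 0.25 SE, edgeR adjusted p = 9.68e-08). CERK1, a chitin receptor, had 27.4, 30.8 and 26.3 CPM in the pad4 libraries, against 68.9, 66.6 and 64.4 CPM in the wild-type libraries (log2 -1.24 ± 0.08 SE, edgeR adjusted p = 1.59e-08). Its partner LYK5 stood at -2.81 ± 0.21, LYM2, another chitin-binding protein, at -2.33 ± 0.09, and EFR, the receptor of elongation factor Tu, at -1.2. BIK1 and RBOHD, the kinase and oxidase directly downstream, were not called, at -0.03 and -0.06. Nor were PEPR1 and PEPR2, receptors of plant danger peptides, at 0.23 and 0.18.

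Cysteine-rich receptor-like kinases, many of which respond to salicylic acid, were mostly lower: 23 of 31 tested, with 3 higher (median log2 -1.50). CRK7 had 0.468, 1.03 and 0.419 CPM in the pad4 libraries, against 36.2, 18.9 and 15.8 CPM in the wild-type libraries (log2 -5.19 ± 0.41 SE, edgeR adjusted p = 1.85e-07). CRK45 had 22.7, 16.3 and 16.4 CPM in the pad4 libraries, against 164, 119 and 122 CPM in the wild-type libraries (log2 -2.87 ± 0.17 SE, edgeR adjusted p = 1.12e-08). CRK9 had 30.1, 42.8 and 34.2 CPM in the pad4 libraries, against 169, 155 and 161 CPM in the wild-type libraries (log2 -2.18 ± 0.13 SE, edgeR adjusted p = 7.72e-09). The falls in this family were spread over weakly and strongly expressed members; CRK37 was lowest of all at -6.76 (-7.42 without pad4 library 2). CRK21, CRK22 and CRK30 were higher, at 0.60 ± 0.09, 0.59 ± 0.09 and 1.92 ± 0.47. CRK21 had 86.1, 91.0 and 99.4 CPM in pad4 and 55.7, 55.7 and 71.0 CPM in wild type, and CRK22 had 47.8, 60.1 and 57.4 CPM in pad4 and 38.9, 31.9 and 39.1 CPM in wild type. Among annotated receptor-like proteins 25 of 47 tested were lower and 0 higher (median log2 -0.86), and among lectin receptor kinases 19 of 45 were lower and 2 higher (median log2 -0.34).

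Most genes of the immune MAP kinase cascade were lower. Of 12 tested members 10 were lower and 0 higher (median log2 -1.15). MKK1 had 12.9, 13.1 and 10.8 CPM in the pad4 libraries, against 59.9, 58.7 and 58.4 CPM in the wild-type libraries (log2 -2.27 ± 0.10 SE, edgeR adjusted p = 4.66e-10). MPK11, the minor relative of MPK4, had 0.281, 0.942 and 0.535 CPM in the pad4 libraries, against 15.4, 14.4 and 15.9 CPM in the wild-type libraries (log2 -4.69 ± 0.23 SE, edgeR adjusted p = 1.94e-09). MKK4 had 11.7, 13.1 and 11.2 CPM in the pad4 libraries, against 48.8, 39.5 and 41.0 CPM in the wild-type libraries (log2 -1.84 ± 0.10 SE, edgeR adjusted p = 5.71e-09). MKK2 stood at -1.41 ± 0.07, MPK3 at -0.92 ± 0.09, MPK4 at -1.03 and MPK6 at -0.45. The kinase at the head of the cascade, MEKK1, and the phosphatase MKP1 were not called, at -0.17 and 0.00.

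Of 22 tested calcium genes 15 were lower and 2 higher (median log2 -0.81). Cyclic nucleotide gated channels differed in direction. CNGC11, of the pair CNGC11 and CNGC12 linked to cell death, had 15.9, 43.1 and 24.01 CPM in the pad4 libraries, against 208, 200.4 and 184 CPM in the wild-type libraries (log2 -2.84 ± 0.27 SE, edgeR adjusted p = 1.04e-06). CNGC20, a channel that limits cell death with CNGC19, had 14.1, 16.8 and 14.0 CPM in the pad4 libraries, against 50.7, 45.7 and 45.1 CPM in the wild-type libraries (log2 -1.66 ± 0.10 SE, edgeR adjusted p = 8.09e-09). CNGC2 had 261, 268 and 266 CPM in the pad4 libraries, against 177, 182 and 191 CPM in the wild-type libraries (log2 0.53 ± 0.06 SE, edgeR adjusted p = 1.4e-05). CNGC4, which forms a channel with CNGC2, had 131, 126 and 130.0 CPM in the pad4 libraries, against 79.4, 78.9 and 91.4 CPM in the wild-type libraries (log2 0.63 ± 0.07 SE, edgeR adjusted p = 8.01e-06). CNGC2 and CNGC4 were the called rises, and CNGC10, CNGC11, CNGC12, CNGC19 and CNGC20 were called falls. The calcium-dependent kinases CPK4, at -1.06 ± 0.07, and CPK5, at -0.89 ± 0.07, were lower, while CPK1, at -0.15, was not called.

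WRKY factors are the main transcription factors of plant defence. Of 34 tested members of the list 25 were lower and 0 higher (median log2 -1.86). WRKY70, a regulator between salicylic acid and jasmonate, had 14.9, 32.8 and 10.6 CPM in the pad4 libraries, against 442, 388 and 412 CPM in the wild-type libraries (log2 -4.41 ± 0.35 SE, edgeR adjusted p = 1.54e-07, and -5.02 without pad4 library 2). Its close relative WRKY54 had 8.92, 17.5 and 6.82 CPM in the pad4 libraries, against 154, 156 and 164 CPM in the wild-type libraries (log2 -3.84 ± 0.28 SE, edgeR adjusted p = 7.55e-08). WRKY46, the third of that group, had 2.01, 2.07 and 1.37 CPM in the pad4 libraries, against 34.9, 25.4 and 31.5 CPM in the wild-type libraries (log2 -4.07 ± 0.18 SE, edgeR adjusted p = 5.28e-10). All 3 were well expressed in wild type after water alone.

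WRKY33, a regulator of camalexin, had 8.97, 14.2 and 9.40 CPM in the pad4 libraries, against 57.2, 46.4 and 48.0 CPM in the wild-type libraries (log2 -2.22 ± 0.18 SE, edgeR adjusted p = 1.88e-07). WRKY18, WRKY40 and WRKY60, which act together as repressors and activators, stood at -1.92, -2.35 and -2.31. WRKY38 and WRKY62, which are induced through NPR1, stood at -5.09 and -6.00; WRKY38 stood at -8.07 without pad4 library 2. WRKY75 at 0.30, WRKY26 at 0.34 and WRKY45 at -0.08 were among the 9 not called. In the annotated family 28 of 52 tested were lower and 3 higher (median log2 -0.61). Left out in turn, the 6 water libraries gave 21 to 26 falls in the list.

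Of 13 tested genes listed as restraining immunity and cell death, 8 were lower and 0 higher (median log2 -0.78). NUDT7, a nudix hydrolase that restrains EDS1 signalling, had 24.4, 25.7 and 22.9 CPM in the pad4 libraries, against 172, 131 and 147 CPM in the wild-type libraries (log2 -2.62 ± 0.10 SE, edgeR adjusted p = 4.27e-10). BAP1, a membrane protein that restrains cell death, had 0.726, 0.712 and 0.558 CPM in the pad4 libraries, against 7.04, 4.63 and 5.53 CPM in the wild-type libraries (log2 -3.10 ± 0.24 SE, edgeR adjusted p = 1.56e-07). ACD6 had 287, 494 and 387 CPM in the pad4 libraries, against 1762, 1731 and 1615 CPM in the wild-type libraries (log2 -2.13 ± 0.16 SE, edgeR adjusted p = 9.21e-08). ACD6, an ankyrin protein that promotes salicylic acid accumulation in spite of its place in the list, was abundant per length, at 122 ± 34.3 FPKM in pad4 and 518 ± 38.6 FPKM in wild type. BON3, another of the falls, had 12 reads in all of wild type and 0 in pad4. Its call was lost by voom, by limma on log2(FPKM + 1) and without wild-type library 1. LSD1 and ACD11 were not called, at 0.10 and 0.03. The list had 0 rises in the fit given here, 2 with RLE factors, DESeq2 or limma on log2(FPKM + 1), and 1 without wild-type library 2.

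**Figure D4:**
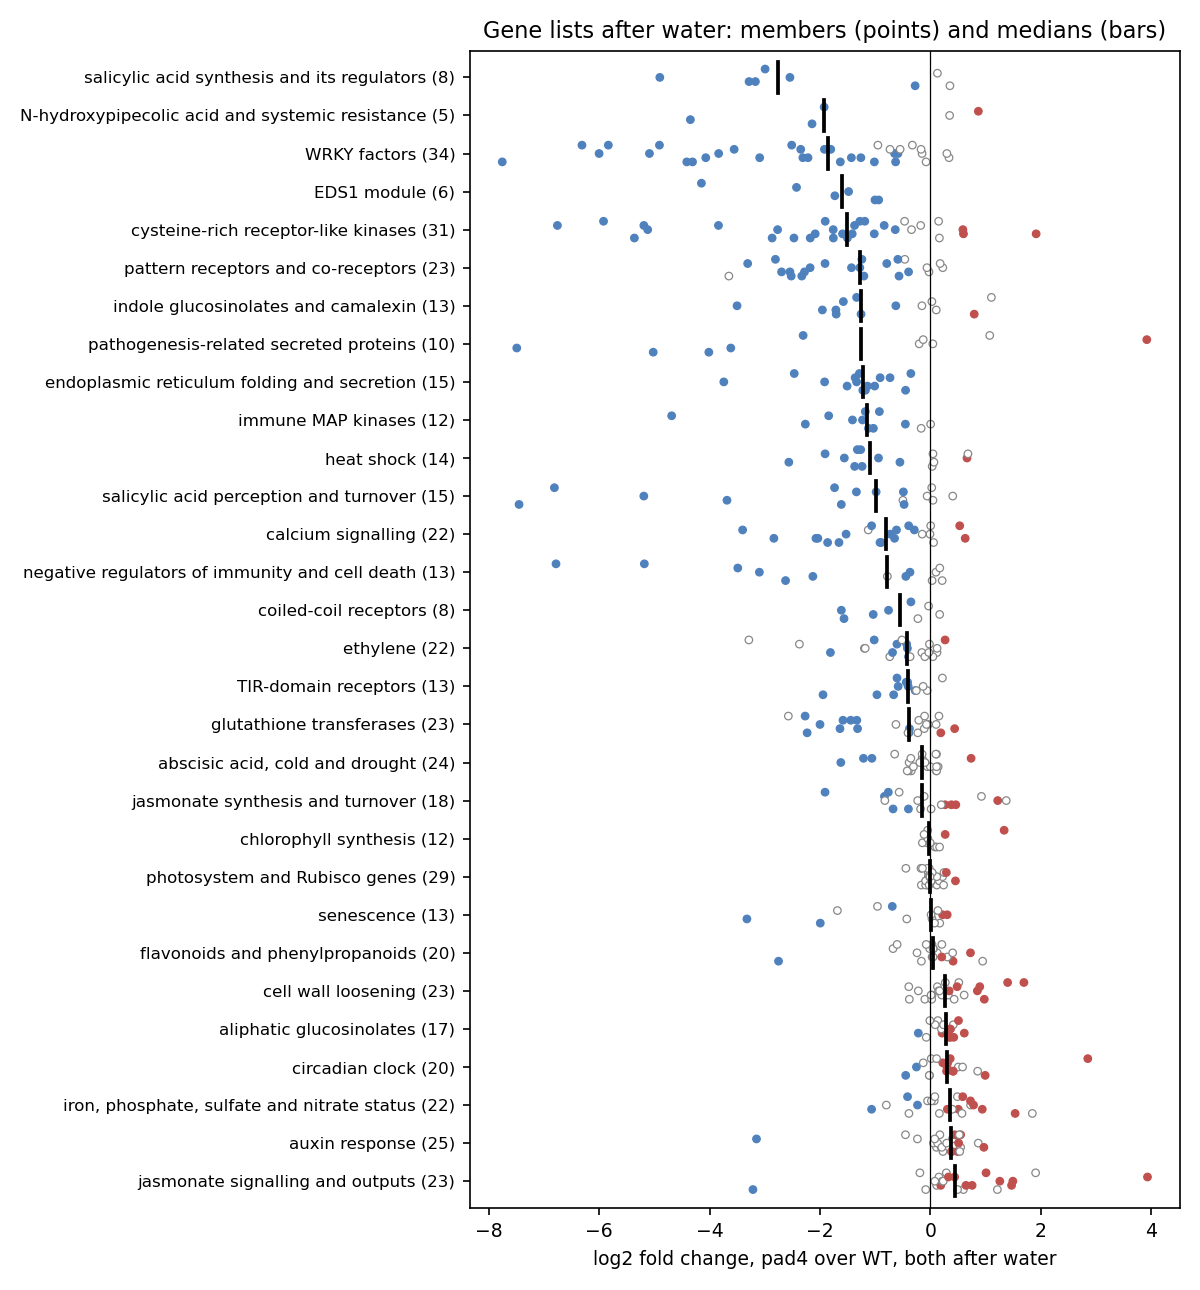
Log2 fold change of pad4 over wild type after water (horizontal axis) for the tested members of each gene list (rows, with the number tested in brackets), ordered by the median (black bar); filled points are called lower (blue) or higher (red) and open points are not called. The medians run between -2.77 for salicylic acid synthesis and 0.44 for jasmonate signalling.

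Of 13 tested genes of indole glucosinolates and camalexin, tryptophan-derived defence compounds, 8 were lower and 1 higher (median log2 -1.26). The count of falls was 5 without pad4 library 2 and 5 without wild-type library 1. PAD3, the last enzyme of camalexin, had 0.609, 0.896 and 0.605 CPM in the pad4 libraries, against 15.0, 4.65 and 4.50 CPM in the wild-type libraries (log2 -3.50 ± 0.45 SE, edgeR adjusted p = 2.81e-05, and -2.69 without wild-type library 1). CYP83B1, at the entry to indole glucosinolates, had 266, 292 and 297 CPM in the pad4 libraries, against 761, 665 and 618 CPM in the wild-type libraries (log2 -1.26 ± 0.09 SE, edgeR adjusted p = 4.04e-08). The regulators differed: MYB51 had 7.05, 9.24 and 6.77 CPM in pad4 and 32.05, 22.04 and 21.6 CPM in wild type (log2 -1.71 ± 0.15 SE, edgeR adjusted p = 4.46e-07), and MYB34 had 28.1, 24.3 and 23.59 CPM in pad4 and 12.4, 15.3 and 16.1 CPM in wild type (log2 0.79 ± 0.17 SE, edgeR adjusted p = 0.00256).

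All 15 tested genes of protein folding and secretion in the endoplasmic reticulum were lower (median log2 -1.22), and this held for every water library left out. BIP2, the abundant HSP70 of that compartment, had 236, 239 and 245 CPM in the pad4 libraries, against 776, 663 and 610.1 CPM in the wild-type libraries (log2 -1.51 ± 0.09 SE, edgeR adjusted p = 1.62e-08). BIP3, its stress-induced copy, had 1.41, 2.09 and 2.28 CPM in the pad4 libraries, against 38.1, 23.61 and 15.99 CPM in the wild-type libraries (log2 -3.74 ± 0.29 SE, edgeR adjusted p = 1.33e-07). CRT3, a calreticulin needed to fold the receptor EFR, had 89.3, 125 and 109.7 CPM in the pad4 libraries, against 505, 384 and 334 CPM in the wild-type libraries (log2 -1.92 ± 0.14 SE, edgeR adjusted p = 7.83e-08). ERDJ3B, a co-chaperone of BIP, had 77.3, 87.5 and 78.7 CPM in the pad4 libraries, against 244, 209 and 174 CPM in the wild-type libraries (log2 -1.36 ± 0.10 SE, edgeR adjusted p = 1.14e-07). The oxidase ERO1 stood at -2.47 ± 0.18, and the transcription factors bZIP60, bZIP17 and bZIP28 of the unfolded protein response at -1.18, -0.73 and -0.35. In wild type the library values for BIP2, BIP3, CRT3 and ERDJ3B were highest in library 1 and lowest in library 3.

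Of 14 tested heat shock genes 9 were lower and 1 higher (median log2 -1.09), with 2 higher without wild-type library 1. HSP90.1, a cytosolic chaperone that helps to fold immune receptors, had 18.3, 23.3 and 21.5 CPM in the pad4 libraries, against 92.0, 62.5 and 82.3 CPM in the wild-type libraries (log2 -1.91 ± 0.14 SE, edgeR adjusted p = 6.71e-08). HSFA2, a heat shock factor, had 2.04, 3.54 and 2.21 CPM in the pad4 libraries, against 18.4, 13.4 and 14.4 CPM in the wild-type libraries (log2 -2.56 ± 0.20 SE, edgeR adjusted p = 1.73e-07). HSP70, the inducible cytosolic form, stood at -1.56 ± 0.11. HSFA3 was the rise, at 5.62, 6.14 and 4.98 CPM in pad4 and 3.02, 3.48 and 4.04 CPM in wild type (log2 0.66 ± 0.15 SE, edgeR adjusted p = 0.0043).

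Of 23 tested glutathione transferases 10 were lower and 2 higher (median log2 -0.39); the falls were 8 to 11, and the rises 1, when pad4 library 1 or 2 or any wild-type library was left out. GSTF8 had 119, 122 and 106 CPM in the pad4 libraries, against 567, 532 and 533 CPM in the wild-type libraries (log2 -2.23 ± 0.07 SE, edgeR adjusted p = 1.11e-10). GSTF2, which binds camalexin and auxin-like compounds, had 47.6, 87.8 and 81.1 CPM in the pad4 libraries, against 369, 286 and 212 CPM in the wild-type libraries (edgeR adjusted p = 3.27e-06). GSTF6 and GSTF7, near-identical neighbours whose reads may be shared, stood at -1.33 ± 0.19 and -2.27 ± 0.25. GSTF11, linked to aliphatic glucosinolates, was higher, at 10.7, 10.6 and 10.7 CPM in pad4 and 7.78, 7.36 and 8.49 CPM in wild type (log2 0.44 ± 0.12 SE, edgeR adjusted p = 0.01).

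Jasmonate signalling moved the other way. Of 23 tested members 10 were higher and 1 lower (median log2 0.44), with 7 to 13 higher when each water library was left out in turn. MYC2, the central transcription factor, had 125, 109.7 and 136 CPM in the pad4 libraries, against 77.0, 75.01 and 84.9 CPM in the wild-type libraries (log2 0.65 ± 0.09 SE, edgeR adjusted p = 7.8e-05). JAZ9, a repressor that MYC2 activates, had 131, 137 and 145 CPM in the pad4 libraries, against 68.1, 71.3 and 65.8 CPM in the wild-type libraries (log2 1.01 ± 0.09 SE, edgeR adjusted p = 7.1e-07). JAZ6 had 41.5, 41.5 and 44.1 CPM in the pad4 libraries, against 25.3, 23.0 and 26.9 CPM in the wild-type libraries (log2 0.76 ± 0.08 SE, edgeR adjusted p = 4.83e-06). These 3 separated the groups in every library, by less than most falls named above. Such separation with pad4 higher was seen for 20.2% of all tested genes.

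VSP2, a storage phosphatase and classical output of the MYC2 branch, had 46.8, 46.5 and 23.4 CPM in the pad4 libraries, against 11.4, 9.41 and 20.4 CPM in the wild-type libraries (log2 1.49 ± 0.36 SE, edgeR adjusted p = 0.00555). Its pad4 library 3 and wild-type library 3 lay close together. VSP1 stood at 1.47 ± 0.43, and was not called without pad4 library 1, wild-type library 1 or wild-type library 2. JAZ8 was at or under 0.843 CPM in every library and was not called without pad4 library 1 or wild-type library 2. TAT3, a tyrosine aminotransferase, was the fall, with 12.8, 8.53 and 10.8 CPM in pad4 and 135, 83.4 and 80.0 CPM in wild type (log2 -3.22 ± 0.20 SE, edgeR adjusted p = 1.68e-08).

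PDF1.2, a defensin of the branch that jasmonate shares with ethylene, was the largest rise by the rule. It had 3.23, 21.8 and 1.44 CPM in the pad4 libraries, against 0.357, 0.824 and 0.553 CPM in the wild-type libraries (log2 3.92 ± 0.98 SE, edgeR adjusted p = 0.007). The rule required groups without overlap, and pad4 library 2 set the size of the rise. Without that library the log2 value was 2.01 with an edgeR adjusted p of 0.0873, and voom did not call PDF1.2. Its near-identical copy PDF1.2c, chosen after its values were seen, had 0.398, 13.3 and 0.302 CPM in pad4 and 0.0275, 0.106 and 0 CPM in wild type. Without pad4 library 2 that copy was not called (log2 2.92, edgeR adjusted p = 0.144). ORA59, a transcription factor that drives PDF1.2, stood at 1.91 and was not called.

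Of 18 tested genes of jasmonate synthesis 4 were higher and 5 lower (median log2 -0.15), against 11.7% higher and 17.5% lower over all genes. The rises were 1 or 2 without pad4 library 1, pad4 library 3, wild-type library 1 or wild-type library 2. AOC1, an allene oxide cyclase, had 46.8, 30.4 and 35.3 CPM in pad4 and 15.8, 13.8 and 18.7 CPM in wild type (log2 1.22 ± 0.18 SE, edgeR adjusted p = 9.48e-05). Its copy AOC3 had 2.9, 1.91 and 2.30 CPM in pad4 and 10.8, 6.35 and 9.57 CPM in wild type (log2 -1.91 ± 0.21 SE, edgeR adjusted p = 4.55e-06), and reads may be shared among the AOC copies. LOX6, a lipoxygenase, was lower, at -0.76 ± 0.09, as was OPCL1, which activates the precursor, at -0.68 ± 0.07.

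Aliphatic glucosinolates are methionine-derived compounds against insects, regulated by MYB28, MYB29 and MYC2. Of 17 tested genes 8 were higher and 1 lower (median log2 0.28). The rises were 4 without pad4 library 3 and 5 without wild-type library 1. The fall, SUR1 at -0.22, was lost without pad4 library 2 or 3 or wild-type library 1 or 2. MYB28 had 103, 98.9 and 89.1 CPM in the pad4 libraries, against 60.1, 72.6 and 57.3 CPM in the wild-type libraries (log2 0.61 ± 0.10 SE, edgeR adjusted p = 0.000328). CYP83A1, an enzyme of the pathway, had 324, 330.2 and 330.2 CPM in the pad4 libraries, against 237, 251 and 246 CPM in the wild-type libraries (log2 0.42 ± 0.07 SE, edgeR adjusted p = 0.00016). MAM1, which lengthens the side chain, had 257, 259 and 263 CPM in the pad4 libraries, against 168, 196 and 184 CPM in the wild-type libraries (log2 0.51 ± 0.11 SE, edgeR adjusted p = 0.00208). Each rise was under 1.6-fold and separated the groups in every library.

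Growth genes rose in part. Of 25 tested auxin response genes 7 were higher and 1 lower (median log2 0.38), and on the 6 water libraries alone 12 were higher. SAUR16 had 54.1, 56.4 and 50.9 CPM in the pad4 libraries, against 22.2, 31.7 and 28.4 CPM in the wild-type libraries (log2 0.97 ± 0.11 SE, edgeR adjusted p = 5.88e-06). IAA3, a repressor of auxin response, had 71.1, 56.7 and 58.3 CPM in the pad4 libraries, against 46.1, 44.1 and 46.9 CPM in the wild-type libraries (log2 0.44 ± 0.09 SE, edgeR adjusted p = 0.00184). SAUR9 was the fall, below 1.1 CPM in every water library. In the annotated SAUR family 13 of 55 tested were higher and 4 lower (median log2 0.45).

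Of 23 tested genes of cell wall loosening 7 were higher and 0 lower (median log2 0.27). EXPA8 had 143, 149 and 142 CPM in the pad4 libraries, against 58.7, 80.1 and 94.7 CPM in the wild-type libraries (log2 0.90 ± 0.21 SE, edgeR adjusted p = 0.00468). EXPA1 had 207, 285 and 225 CPM in the pad4 libraries, against 88.1, 126 and 150.4 CPM in the wild-type libraries (log2 0.98 ± 0.19 SE, edgeR adjusted p = 0.00104). Both are expansins, which loosen walls during growth, and in both wild-type library 1 was the lowest of its group. GASA6, a gibberellin-regulated peptide listed with them, had 50.2, 61.9 and 66.6 CPM in the pad4 libraries, against 13.7, 20.9 and 20.5 CPM in the wild-type libraries (log2 1.69 ± 0.23 SE, edgeR adjusted p = 5.47e-05).

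The largest rises after PDF1.2 belonged to varied processes. SEN1, a gene induced by darkness and senescence, had 4.68, 11.1 and 17.8 CPM in the pad4 libraries, against 2.47, 1.86 and 1.13 CPM in the wild-type libraries (log2 2.63 ± 0.51 SE, edgeR adjusted p = 0.00124). MBP1, a myrosinase-binding protein of the glucosinolate defence, had 30.4, 18.5 and 34.1 CPM in the pad4 libraries, against 7.2, 4.97 and 5.14 CPM in the wild-type libraries (log2 2.26 ± 0.24 SE, edgeR adjusted p = 4.06e-06). SIP2, an alpha-galactosidase-like enzyme of raffinose breakdown, had 169, 179.7 and 186 CPM in the pad4 libraries, against 52.4, 50.1 and 60.6 CPM in the wild-type libraries (log2 1.71 ± 0.07 SE, edgeR adjusted p = 4.66e-10). SIP2 had the tightest libraries of these 3, and SEN1 the widest.

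CER4, a fatty acyl reductase that makes wax alcohols, had 5.01, 6.87 and 3.56 CPM in the pad4 libraries, against 0.660, 1.2 and 1.47 CPM in the wild-type libraries (log2 2.21 ± 0.51 SE, edgeR adjusted p = 0.00411). CYP96A12, a cytochrome P450, stood at 1.92 ± 0.28, HAT14, a homeodomain-leucine zipper factor, at 1.43 ± 0.23, and FRO4, a ferric reductase, at 1.38 ± 0.27. G3Pp1, annotated as a glycerol-3-phosphate transporter, had 3.23, 10.2 and 6.23 CPM in the pad4 libraries, against 2.78, 1.62 and 2.26 CPM in the wild-type libraries (log2 1.57 ± 0.31 SE, edgeR adjusted p = 0.00149). AT1G52000, annotated as a mannose-binding lectin superfamily protein, was chosen after its values were seen and had 69.8, 50.3 and 71.7 CPM in the pad4 libraries, against 18.0, 20.2 and 23.9 CPM in the wild-type libraries (log2 1.62 ± 0.14 SE, edgeR adjusted p = 6e-07). The rule that chose the largest rises required groups without overlap, so the order of their libraries is no further result. The same holds for AT1G52000, whose groups did not overlap but which was chosen with its values known.

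Nutrient and clock lists held more rises than falls, whereas 11.7% of all tested genes were higher and 17.5% lower. Of 22 tested genes of iron, phosphate, sulfate and nitrate status 7 were higher and 3 lower (median log2 0.35), with 4 higher and 1 lower without pad4 library 2. NRT1.1, the dual-affinity nitrate transporter, had 161, 196 and 187 CPM in the pad4 libraries, against 113, 118 and 131 CPM in the wild-type libraries (log2 0.59 ± 0.08 SE, edgeR adjusted p = 5.09e-05). SULTR4;2, which releases sulfate from the vacuole, stood at 0.94 ± 0.19, and NIA1, a nitrate reductase, at -1.07 ± 0.22. Of 20 tested clock genes 9 were higher and 2 lower (median log2 0.30), with 5 higher without wild-type library 2. PRR3 had 131, 137 and 137 CPM in pad4 and 104, 103 and 96.3 CPM in wild type (log2 0.41 ± 0.06 SE, edgeR adjusted p = 0.000125), and GI had 89.9, 87.4 and 83.2 CPM in pad4 and 71.9, 70.9 and 69.9 CPM in wild type (log2 0.29 ± 0.06 SE, edgeR adjusted p = 0.001). The falls in the clock were 1 without pad4 library 2, pad4 library 3, wild-type library 2 or wild-type library 3, and also with RLE factors and DESeq2. No label gives the hour of harvest.

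The photosynthetic machinery differed little. Of 29 tested photosystem and Rubisco genes 2 were higher and 0 lower (median log2 -0.01), and without wild-type library 1 the count was 1 higher and 4 lower. Of 12 tested genes of chlorophyll synthesis 2 were higher and 0 lower (median log2 -0.02), and 0 were called without that library or without pad4 library 3. The sign of both medians flipped under RLE factors, DESeq2 and limma on log2(FPKM + 1). RBCS2B, a small subunit of Rubisco with near-identical copies, had 4279.7, 4731 and 4258 CPM in pad4 and 2928, 3367 and 3389 CPM in wild type (log2 0.45 ± 0.10 SE, edgeR adjusted p = 0.00242). Light-harvesting genes ran between -0.44 for LHCB1.1 and 0.25 for LHCB2.2, and none was called.

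Of 24 tested genes of abscisic acid, cold and drought 3 were lower and 1 higher (median log2 -0.15), no larger a share than the 17.5% lower and 11.7% higher over all genes, with 7 lower without pad4 library 1, 1 lower without pad4 library 2 and 5 lower with a replicate block. NCED3, the key enzyme of abscisic acid synthesis, had 17.5, 17.3 and 16.6 CPM in pad4 and 9.87, 9.70 and 11.2 CPM in wild type (log2 0.74 ± 0.13 SE, edgeR adjusted p = 0.000562). ZAT12, a stress-responsive zinc finger factor, stood at -1.21 ± 0.23. Of 22 tested ethylene genes 7 were lower and 1 higher (median log2 -0.42), with 0 higher without pad4 library 1, pad4 library 2 or wild-type library 1. ACO4, an ethylene-forming enzyme, had 326, 332 and 331 CPM in pad4 and 435, 427 and 441 CPM in wild type (log2 -0.40 ± 0.06 SE, edgeR adjusted p = 0.000139). Of 20 tested phenylpropanoid and flavonoid genes 3 were higher and 1 lower (median log2 0.05), against 11.7% higher and 17.5% lower over all genes, so that the rises were near the background. PAL2, at the entry to that pathway, had 51.0, 53.2 and 53.5 CPM in pad4 and 26.5, 34.1 and 34.6 CPM in wild type (log2 0.73 ± 0.12 SE, edgeR adjusted p = 0.000219). The fall was CCOAMT, under 1 CPM in every water library and not called without pad4 library 2, pad4 library 3 or wild-type library 1; 2 genes were lower without pad4 library 1.

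Of 13 senescence markers tested 2 were higher and 3 lower (median log2 0.01), shares near the 11.7% higher and 17.5% lower over all genes; 5 were lower without pad4 library 1, and 1 was higher without pad4 library 1, pad4 library 2, wild-type library 1 or wild-type library 2. SAG21, a late embryogenesis-like protein that also responds to pathogens, had 3.98, 5.26 and 7.16 CPM in the pad4 libraries, against 72.9, 41.0 and 50.6 CPM in the wild-type libraries (log2 -3.32 ± 0.21 SE, edgeR adjusted p = 1.59e-08). PPH, which removes the phytol tail during chlorophyll breakdown, had 68.4, 67.3 and 75.5 CPM in pad4 and 56.5, 55.8 and 58.6 CPM in wild type (log2 0.31 ± 0.06 SE, edgeR adjusted p = 0.00189). ORE1 and NAP, transcription factors of leaf senescence, were not called, at 0.17 and -0.43. SEN1 was on the list but left out of these counts, because its symbol matched more than 1 gene. The SEN1 among the largest rises stood at 2.63.

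Markers of leaf cell types differed little for mesophyll and vascular tissue, and in part for epidermis and guard cells. Mesophyll markers, which define leaf tissue, summed to between 24500 and 25564 CPM in pad4 and between 21592 and 27969 CPM in wild type, with 1 of 8 called higher and 0 lower, or 1 higher and 2 lower without wild-type library 1. None of 14 vascular markers was called. Of 9 epidermal markers 0 were higher and 1, LTP1, was lower, and without pad4 library 1 there were 4 lower. Epidermal markers summed to between 2462 and 3565 CPM in pad4 and between 3796 and 3968 CPM in wild type, without overlap. LTP1 was the largest part of that sum. Taken singly, 3 of the 9 were lower in pad4 without overlap. Of 9 guard cell markers 3 were higher (33.3%) and 1 lower (11.1%), against 11.7% and 17.5% over all genes. None was higher without pad4 library 3, and 1 was higher without pad4 library 1 or wild-type library 2. None was lower without pad4 library 2, wild-type library 2 or wild-type library 3.

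Of the flower, seed and root markers 7 of 12 were tested, with AG and SEP3 higher and SHR lower. AG, a floral organ identity factor, had 2.88, 3.49 and 2.86 CPM in pad4 and 1.32, 1.22 and 1.42 CPM in wild type. SEP3, another floral factor, had 1.8, 11.997 and 8.72 CPM in pad4 and 2.14, 1.14 and 1.13 CPM in wild type, so that pad4 library 1 lay within the wild-type range, and voom did not call it. The list gave 1 rise by voom, and 0 of 2 tested genes with at least 5 CPM in 3 libraries. SEP1, its relative, was among the 12 largest rises, with 2.62, 8.6 and 9.77 CPM in pad4 and 2.58, 2.1 and 1.63 CPM in wild type (log2 1.74 ± 0.40 SE, edgeR adjusted p = 0.00437). The petal and stamen factors AP3 and PI stayed at or under 0.141 CPM in every library, and the seed storage gene CRA1 at or under 0.0234 CPM. The part of floral RNA in other differences was not tested.

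Genes near the knocked-out locus on chromosome 3 were called about as often as others. With PAD4 left aside, 31.0% of 116 tested genes within 250 kb of it were called and 31.8% of 868 within 2000 kb. The share was 29.7% over chromosome 3 and 29.2% over all genes. The nearest called gene with a symbol was SYP122, a plasma membrane syntaxin of secretion during defence, with 15.0, 20.4 and 13.6 CPM in the pad4 libraries, against 69.6, 41.7 and 45.2 CPM in the wild-type libraries (log2 -1.68 ± 0.20 SE, edgeR adjusted p = 1.2e-05).

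Most differences seen after water were seen again in the same direction in the 6 libraries that had received 2'cADPR, which share no library with the water comparison but share its estimate of the spread. There 14577 genes were called (74.2%), with 7345 higher in pad4 (37.4%) and 7232 lower (36.8%). Of the 3445 genes lower in pad4 after water, 3188 (92.5%) were lower after 2'cADPR too, which was 44.1% of those lower there. Of the 2299 higher, 2047 (89.0%) were higher again, 27.9% of those higher there. The size differed often: the interaction was called for 2624 of the 3445 (76.2%) and for 1779 of the 2299 (77.4%), against 57.6% of all tested genes.

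ICS1 had log2 -2.99 after water and -6.83 after 2'cADPR, where it stood at 4.15, 4.58 and 4.38 CPM in pad4 and 489.6, 559 and 444 CPM in wild type (interaction -3.84 ± 0.19 SE, edgeR adjusted p = 1.29e-09). FMO1 had log2 -1.92 after water and -14.05 after 2'cADPR (interaction -12.13 ± 1.14 SE, edgeR adjusted p = 1.22e-06). GASA6 had 1.69 and 8.26 (interaction 6.56 ± 0.52 SE, edgeR adjusted p = 7.43e-08). For these the genotype gap was wider after the compound.

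For other genes the gap after water was not shown to differ from that after 2'cADPR. DLO1 had -7.45 and -7.89 (interaction -0.43 ± 1.1 SE, edgeR adjusted p = 0.76), ACD6 -2.13 and -2.04 (interaction 0.09 ± 0.21 SE, edgeR adjusted p = 0.75). SEN1 had 2.63 and 2.69 (interaction 0.06 ± 0.72 SE, edgeR adjusted p = 0.953), and BGL2 -3.62 and -3.07 (interaction 0.54 ± 0.43 SE, edgeR adjusted p = 0.293). A p above the threshold does not show that the gaps were equal.

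**Figure D5:**
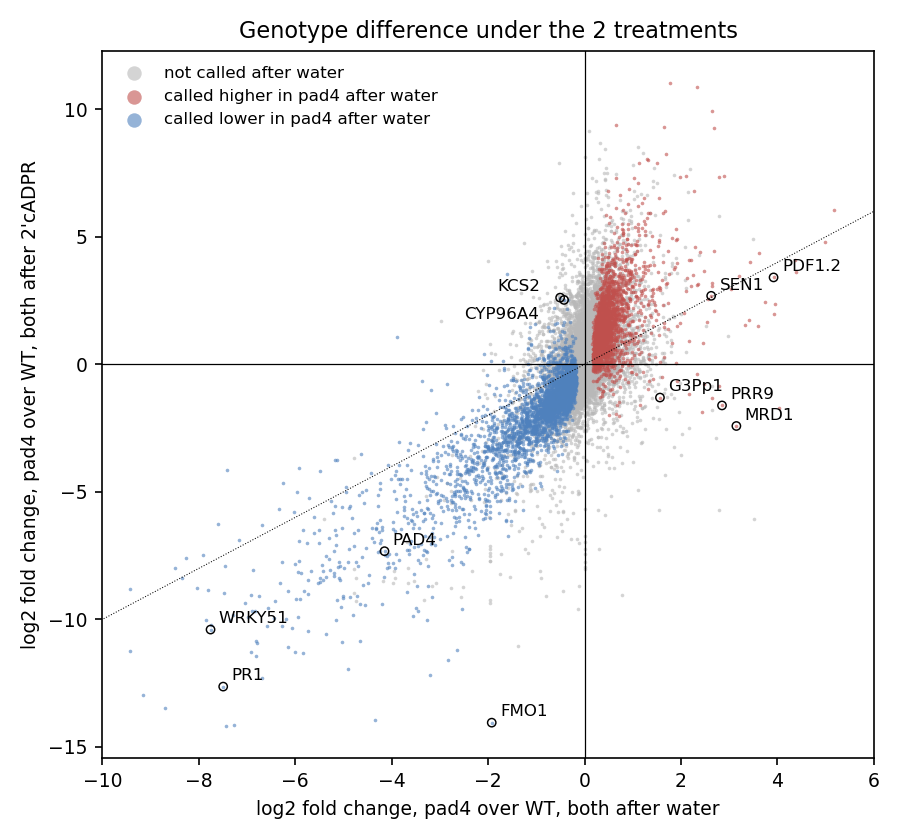
Log2 fold change of pad4 over wild type after water (horizontal axis) and after 2'cADPR (vertical axis) for each tested gene; red and blue points were called higher or lower in pad4 after water, and the dotted line marks equal values. Most blue points lie below the line at lower left, as PAD4 at -4.15 and -7.33 does, and the few labelled genes off to the other sides, such as G3Pp1 and MRD1, changed direction.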

How the data were processed

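Messenger RNA of 12 rosette leaf libraries was analysed, and the 6 that had received water were compared here. The deposited count table holds raw read counts per gene, which the authors made with fastp, HISAT and HTSeq on TAIR10, per the submitters' processing notes; versions, settings and strand use are all not given in the sources used here. Beside it, the FPKM table deposited by the authors scales those reads to gene length and depth; it served for levels per length and for an alternative with 1 added on the log2 scale. Implied lengths equalled summed exons of RefSeq TAIR10.1 within 0.5 base for 99.98% of genes, so that annotation gave names and positions.

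Counts were fitted in R 4.3.3 with edgeR 4.0.16: TMM, filterByExpr on the groups at its minimum count of 10 (99.98% of counts kept), a quasi-likelihood fit of group means over 12 libraries, two-sided tests, and Benjamini-Hochberg adjustment, called under 0.05. The median SE of a log2 value was 0.118. Alternatives used limma 3.58.1 and DESeq2 1.42.0. The code was tested on simulated data. Replicates of a group had Spearman correlations of 0.992 to 0.996 across genes.

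Members, 35 gene lists and tests were chosen with earlier results of these data known. Of 680 listed symbols, 605 matched a gene in the table. Named genes were PAD4, its partners, ICS1, PR1 and FMO1; the 12 largest rises and falls among calls with a symbol, non-overlapping groups and 5 CPM or more in the higher one; up to 4 members per list and direction by adjusted p; the 4 called genes nearest to PAD4; and 5 with opposite calls. Others named, such as list members that were not called, were chosen after their values were seen. Folds against no reads use a floor of 3 counts; intervals are 95% and cover counting error only. Near-identical copies, such as EDS1 and its neighbour, RBCS, LHCB1, GSTF6 and GSTF7, and the AOC genes, may share reads.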

Additional observations from a re-analysis of the deposited data

Results flagged for a closer look

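The difference between pad4 and wild type itself differed between treatments for 11326 genes, by the edgeR interaction test over all 12 libraries. For 134 genes the call after water and the call after 2'cADPR were in opposite directions and the interaction was called. The 5 with a symbol and the largest interaction follow, without an explanation.

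MRD1, a gene named for its reduced level in a mutant of another gene, was higher in pad4 after water, with 0.796, 0.735 and 0.395 CPM in pad4 and 0.0825, 0.106 and 0.0240 CPM in wild type. After 2'cADPR it stood at 0.384, 0.0663 and 0.116 CPM in pad4 and 2.17, 0.813 and 0.0727 CPM in wild type (interaction log2 -5.57, edgeR adjusted p = 0.00249). Its call after water was lost in 5 of the 6 fits without a water library, by voom and by limma on log2(FPKM + 1). PRR9, a clock gene, stood at 0.422, 0.276 and 0.302 CPM in pad4 and 0.0275, 0.106 and 0 CPM in wild type after water and at 0.135, 0.0663 and 0.373 CPM in pad4 and 0.931, 0.441 and 0.388 CPM in wild type after 2'cADPR (interaction log2 -4.46, edgeR adjusted p = 0.00326). Without wild-type library 3 its log2 value after water was 2.26 and not called, without wild-type library 2 it was 4.40, and it was also not called without pad4 library 1 or wild-type library 1, or by limma on log2(FPKM + 1). G3Pp1 stood at 3.23, 10.2 and 6.23 CPM in pad4 and 2.78, 1.62 and 2.26 CPM in wild type after water and at 3.45, 4.02 and 3.52 CPM in pad4 and 8.52, 8.76 and 9.81 CPM in wild type after 2'cADPR (interaction log2 -2.87, edgeR adjusted p = 4.54e-05).

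KCS2, an enzyme of long-chain fatty acids, was lower in pad4 after water, with 17.8, 11.9 and 10.2 CPM in pad4 and 19.6, 18.1 and 18.9 CPM in wild type. After 2'cADPR it stood at 15.3, 14.8 and 11.8 CPM in pad4 and 1.98, 2.14 and 2.71 CPM in wild type (interaction log2 3.12, edgeR adjusted p = 1.43e-07). CYP96A4 stood at 53.4, 38.01 and 50.6 CPM in pad4 and 56.8, 66.3 and 67.4 CPM in wild type after water and at 67.7, 66.5 and 68.7 CPM in pad4 and 8.95, 13.2 and 13.01 CPM in wild type after 2'cADPR (interaction log2 2.95, edgeR adjusted p = 1.56e-08). The calls after water of KCS2 and CYP96A4 were lost in 5 and 3 of the 6 fits without a water library. KCS2 was also not called with RLE factors (log2 -0.48) or on the 6 water libraries alone (log2 -0.49).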

How the results depend on the processing

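The counts called higher and lower after water, over all genes and by list, were recomputed under RLE factors, DESeq2, voom, other filters, the 6 water libraries alone, a replicate block, limma on log2(FPKM + 1) and each water library left out. Calls higher ran between 1666 and 1900 and calls lower between 2928 and 3114 with a library left out; at 2-fold or more they ran between 170 and 213 higher and between 1070 and 1231 lower. Among counts over all genes, those that moved by over 1.5 times were at 2-fold or more: 92 higher with at least 5 CPM in 3 libraries, where fewer genes are tested, and 79 higher and 674 lower with limma on log2(FPKM + 1), where the 1 FPKM added shrinks low genes (WRKY51 stood at -3.01). Replicate numbers did not pair the libraries: deviations of same-numbered libraries correlated at -0.0093, -0.0792 and 0.0613. The replicate block gave 2197 higher and 3383 lower, with 5423 calls shared. The interaction count was recomputed only with RLE factors, DESeq2, voom, no filter and the replicate block, and ran between 11148 and 11585. Counts by family, near PAD4, of noncoding genes and of opposite calls were not recomputed.

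A recheck gene by gene covered 207 named genes, 177 by rule and 30 added after their values were seen. All 207 were called in the main fit on these same libraries, so a reversal was unlikely from the start. Other genes named here, called or not, were not part of it. Of 2873 recomputed values, 2732 kept direction and call, 141 kept direction and lost the call, and 0 reversed. The losses fell on 36 genes, 20 of them only with a library left out. DESeq2 gave no adjusted p for PR1, NIMIN1 and PDF1.2c. TTGAC, searched to 50 bases past the start, stood in 69.2% of windows of genes at least 2-fold lower and 50.6% of all. Read depth limits genes under about 1 CPM, where a few reads set the fold.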
